A study of Homo sapiens with 12 samples.

Results

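The axon guidance genes described here are the protein-coding genes of the semaphorin (SEMA3 to SEMA7), plexin, neuropilin, netrin, UNC5, Slit and Robo families, taken by symbol alone. The families were chosen with earlier results of these data known. There were 47 of them among 20006 protein-coding genes and 61587 genes in all. RNA was measured in A2058, an established human cutaneous melanoma cell line, in 12 libraries that fell into 4 groups of 3, with 1 library of every group in each of 3 batches. The groups were cells transfected with siRNA 1 against SOX10 (siSOX10_1), with siRNA 2 against SOX10 (siSOX10_2) or with a negative control siRNA (siCNTL), all at 12.5 nM and collected after 96 hours, and non-transfected cells (untreated). SOX10 is a DNA-binding regulator needed by neural crest cells and melanocytes, and the comparisons ask which guidance genes differ when it is lowered. All libraries come from 1 cell line, siRNA lowers a transcript without removing it, and in bulk RNA fewer cells expressing a gene and less RNA per cell cannot be told apart.

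Semaphorins are secreted or membrane-bound ligands that act through plexin receptors, and most secreted class 3 semaphorins also need a neuropilin, which binds the ligand and pairs with a plexin. Netrins act through DCC, neogenin and the UNC5 receptors, and Slits through Robo receptors. These families were found as cues for growing axons and also steer migrating neural crest cells, from which melanocytes arise. Neuropilins additionally bind vascular endothelial growth factors.

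Values are TPM, transcript abundances that the authors scaled by gene length and to the same total in every library, so levels can be set beside each other between genes but sequencing depth is unknown. Between 20396 and 23564 genes were above 0 per library. SOX10 itself had 12.8, 12.8 and 3.32 TPM in batches 1, 2 and 3 with siSOX10_1 and 11.8, 8.95 and 4.24 TPM with siSOX10_2, against 30.005, 28.6 and 36.8 TPM with siCNTL and 22.3, 26.0 and 32.4 TPM in untreated cells. Both siRNA groups lay below both control groups, and within each SOX10 siRNA the batch 3 library was lowest. The batch 3 libraries of the 3 transfected groups also stood apart on the second principal component of all genes tested (12.3% of variance). Melanocyte markers were detected in every library and fell with SOX10. PMEL, a melanosome protein, averaged 634 ± 472 TPM after siSOX10_1 and 432 ± 285 TPM after siSOX10_2, against 3320 ± 1300 TPM with siCNTL (SD, n = 3 each). All 8 melanocyte markers other than SOX10 fell in the mean of the siRNAs, by 1.29 (S100A1) to 3.33 (MLANA) on the log2 scale (limma adjusted p = 0.000317 to 0.0270), and PMEL, MLANA, TYR and DCT were lowest in batch 3 of each SOX10 siRNA. The part of this fall in the results was not tested. Of 12 markers of leukocytes, epithelium, endothelium and fibroblasts, 7 stayed under 1 TPM in all libraries and KRT5 was listed at 0 in all of them. Their summed level was 11.3 to 16.1 TPM with siSOX10_1 and 11.3 to 14.6 TPM with siSOX10_2, against 1.61 to 1.95 TPM with siCNTL and 0.565 to 1.28 TPM in untreated cells. The collagen gene COL1A1 rose among them (by 3.33 ± 0.186 on the log2 scale in the mean of the siRNAs, limma adjusted p = 6.38e-08), and the part of these markers in the results was not tested.

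In the mean of both SOX10 siRNAs against siCNTL, 15 of the 47 rose and 3 fell at a limma adjusted p under 0.05, 8 did not pass, and 21 were too low to be tested (under 1 TPM in all but 2 libraries or fewer). Over all 15738 genes tested, 20.2% rose and 12.9% fell in the same comparison, 33.1% in either direction. With siSOX10_1 alone 14 rose and 2 fell, where 15.6% and 11.7% of all genes did, and with siSOX10_2 alone 13 rose and 2 fell, where 18.4% and 10.4% of all genes did. Both comparisons use the same siCNTL libraries. Called with both siRNAs were 11 that rose (12.1% of all genes did so), NRP1, NTN4, PLXNB2, ROBO1, SEMA3A, SEMA3C, SEMA4B, SEMA4C, SEMA4F, SEMA6B and SEMA7A, and 1 that fell, SEMA6A (7.99% of all genes). All 6 SOX10 siRNA libraries lay above all 6 control libraries for 12 members, the 11 that rose with both and SEMA4D, which is so for 14.0% of all genes tested. They lay below all 6 for 2 members, ROBO2 and SEMA6A, as for 9.37% of all genes. A member that passed the filter on low values through the group in which it is high had to differ, so these counts describe the tested members and not the family. Without the 4 libraries of batch 3, 13 rose and 2 fell, and no share of all genes is given for that fit. There ROBO3 and SEMA5A lost their calls (limma adjusted p = 0.0513 and 0.135), and SEMA4D no longer passed the filter on low values.

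**Figure D1:**
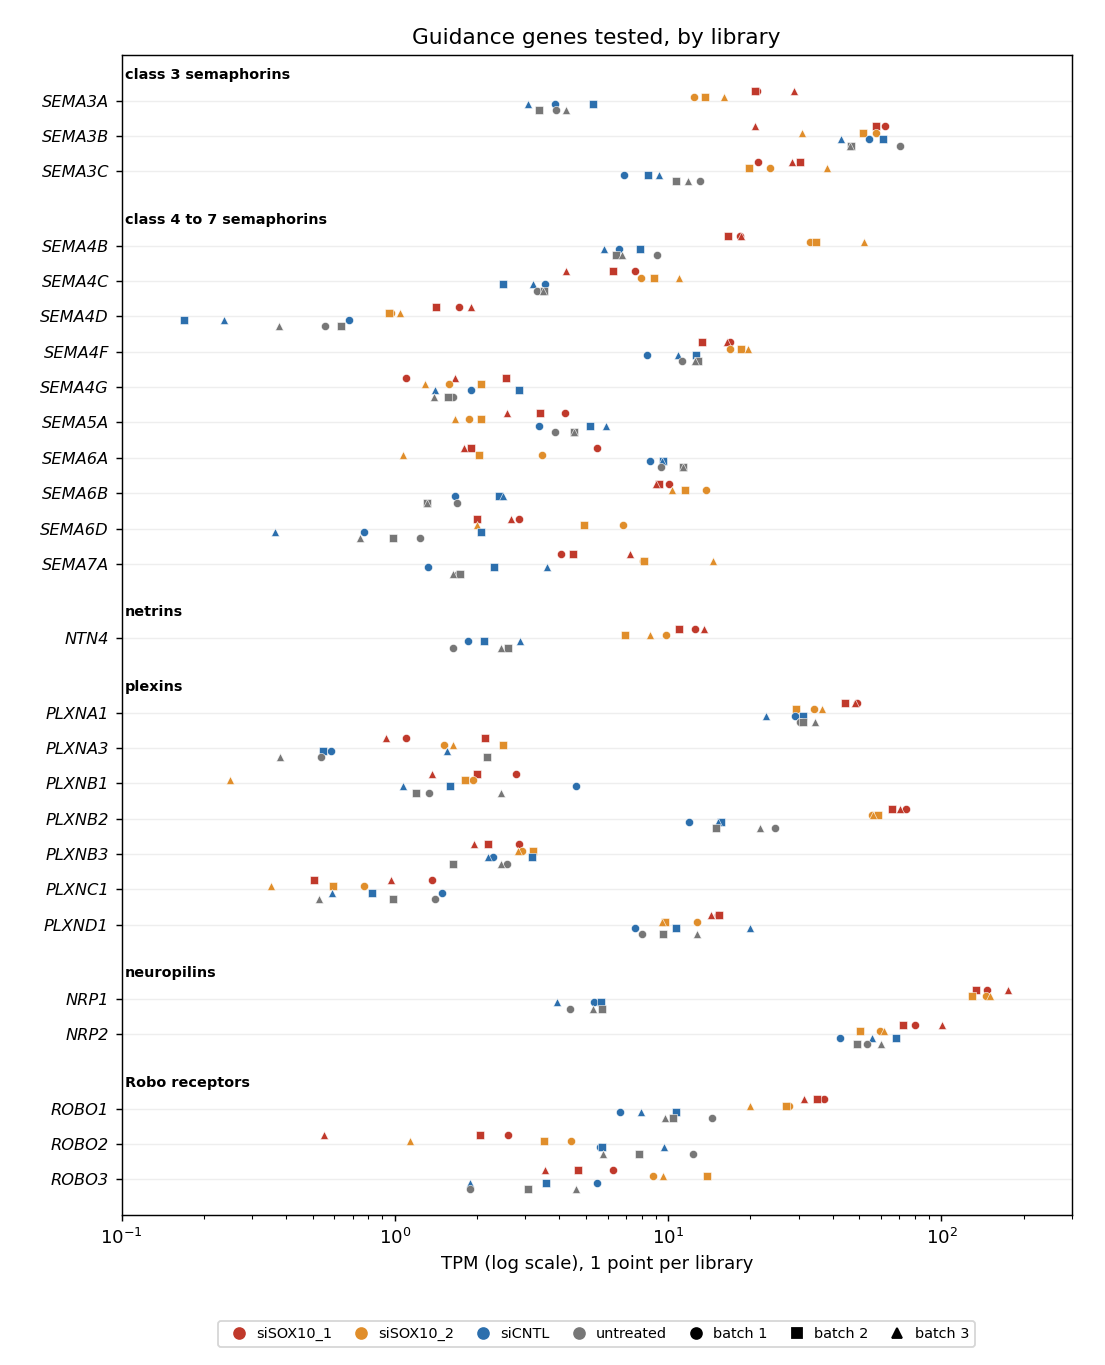
TPM of the 26 guidance genes tested in each of the 12 libraries (log axis, 1 point per library, colour for the group and shape for the batch), ligands above and receptors below. NRP1 moves furthest, with the 6 SOX10 siRNA libraries between 130 and 175 TPM and the 6 control libraries between 3.92 and 5.72 TPM.

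NRP1, neuropilin 1, showed the largest change of any member. The gene lies on chromosome 10, 33177492 to 33336262, minus strand (GRCh38). It had 147, 134 and 175 TPM in batches 1, 2 and 3 with siSOX10_1 and 146, 130 and 150 TPM with siSOX10_2, against 5.34, 5.67 and 3.92 TPM with siCNTL and 4.37, 5.72 and 5.31 TPM in untreated cells. The SOX10 siRNA libraries did not overlap the control libraries, and the lowest SOX10 siRNA library stood far above the highest control library. Group means were 152 ± 21.1 TPM after siSOX10_1 and 142 ± 10.8 TPM after siSOX10_2, against 4.98 ± 0.928 TPM with siCNTL (SD, n = 3 each), which are 30.5-fold and 28.5-fold differences. On the log2(TPM + 1) scale, which understates changes of low genes, NRP1 rose by 4.68 ± 0.163 (standard error, limma adjusted p = 2.29e-09) with siSOX10_1 and by 4.59 ± 0.163 (adjusted p = 1.74e-09) with siSOX10_2. An antisense transcript that overlaps NRP1, ENSG00000238258, also rose (3.43 to 6.60 TPM with siSOX10_1 and 3.44 to 7.28 TPM with siSOX10_2, against 0 to 0.443 TPM with siCNTL). The sources used here do not give the use of strand in counting, so reads from this pair may not be separable.

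NRP2, the other neuropilin (chromosome 2, 205681990 to 205798133), was the more abundant of the pair in control cells. Its values were 79.9, 72.1 and 101 TPM with siSOX10_1 and 59.5, 50.5 and 61.7 TPM with siSOX10_2, against 42.4, 68.2 and 55.5 TPM with siCNTL and 53.6, 49.1 and 60.3 TPM in untreated cells. The siSOX10_1 libraries lay above every control library, while those of siSOX10_2 overlapped the controls. NRP2 rose with siSOX10_1 (log2 fold change 0.61 ± 0.176, limma adjusted p = 0.0212), a call lost without siSOX10_1 replicate 3 (0.0817) or siCNTL replicate 1 (0.0985), without batch 3 (0.0780), with median-of-ratios scaling (0.0581), with no filter (0.0581) and with the compared groups alone (0.0540). With siSOX10_2 it did not pass (0.07 ± 0.176, adjusted p = 0.819), nor did the difference between the siRNAs (-0.54 ± 0.176, adjusted p = 0.158). In the mean of both siRNAs it did not pass (0.34 ± 0.153, adjusted p = 0.109) but did without siCNTL replicate 2 (adjusted p = 0.0359). NRP1 made up 63.5% to 65.0% of the summed neuropilin TPM with siSOX10_1 and 70.9% to 71.9% with siSOX10_2, against 6.60% to 11.2% with siCNTL and 7.53% to 10.4% in untreated cells. Most neuropilin transcript was NRP1 in each SOX10 siRNA library and NRP2 in each control library.

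**Figure D2:**
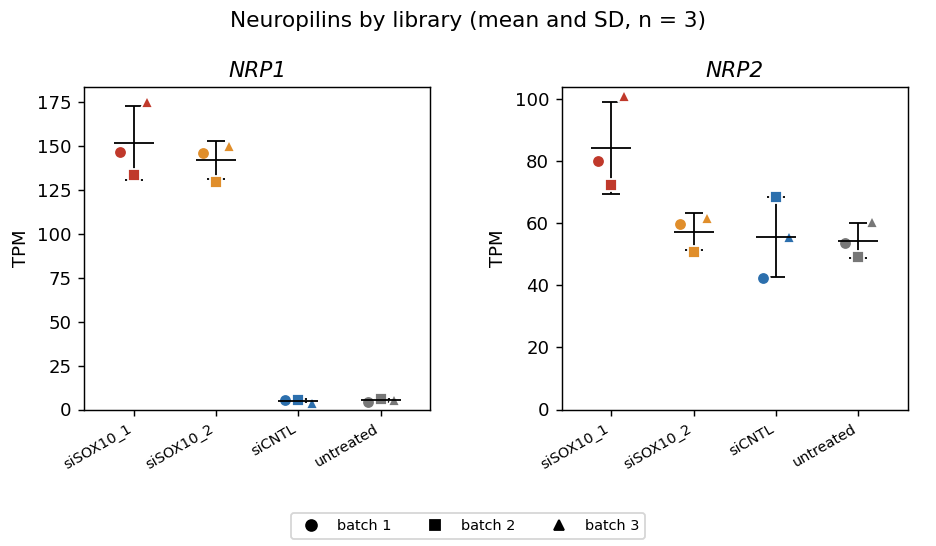
TPM of NRP1 and NRP2 in each library by group (points, shape for the batch), with the group mean and SD of 3 libraries. NRP1 averages 152 and 142 TPM with the SOX10 siRNAs against 4.98 TPM with siCNTL, while NRP2 averages 84.2 and 57.2 TPM against 55.4 TPM.

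Of the 7 class 3 semaphorins, the secreted ligands of neuropilins, 2 rose (SEMA3A and SEMA3C), SEMA3B did not pass and 4 were not tested. On the base of the 3 tested, 2 rose, where 20.2% of all genes tested did. SEMA3A, a repulsive cue that binds neuropilin 1 (chromosome 7, 83955777 to 84492724), had 21.2, 20.8 and 28.8 TPM with siSOX10_1 and 12.4, 13.6 and 16.1 TPM with siSOX10_2, against 3.86, 5.31 and 3.07 TPM with siCNTL and 3.90, 3.37 and 4.24 TPM in untreated cells. The SOX10 siRNA libraries did not overlap the control libraries, and siSOX10_1 also lay above siSOX10_2. SEMA3A rose by 2.29 ± 0.214 with siSOX10_1 (limma adjusted p = 8.77e-06) and by 1.58 ± 0.214 with siSOX10_2 (adjusted p = 0.000152), and the difference between the siRNAs did not pass (-0.71 ± 0.214, adjusted p = 0.128, 95% interval -1.17 to -0.24). SEMA3C, which binds both neuropilins (chromosome 7, 80742538 to 80922359), had 21.4, 30.5 and 28.5 TPM with siSOX10_1 and 23.6, 19.8 and 38.2 TPM with siSOX10_2, against 6.91, 8.42 and 9.24 TPM with siCNTL and 13.1, 10.7 and 11.8 TPM in untreated cells. The control groups lay below every SOX10 siRNA library, and it rose with either siRNA (1.59 ± 0.230 and 1.57 ± 0.230, adjusted p = 0.000288 and 0.000269).

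SEMA3B, which was the most abundant class 3 semaphorin in control cells, overlapped the controls in batches 1 and 2 of the SOX10 siRNAs and was lower in batch 3. It had 62.4, 57.8 and 20.8 TPM with siSOX10_1 and 57.5, 51.5 and 30.8 TPM with siSOX10_2, against 54.5, 61.1 and 42.8 TPM with siCNTL and 70.7, 46.8 and 46.2 TPM in untreated cells. It did not pass in the mean of both siRNAs (log2 fold change -0.25 ± 0.323, limma adjusted p = 0.596, 95% interval -0.96 to 0.45). SEMA3F, a ligand of neuropilin 2, stayed between 0.519 and 1.35 TPM with the SOX10 siRNAs and between 0.419 and 0.959 TPM in control libraries. SEMA3D, SEMA3E and SEMA3G were under 1 TPM in every library.

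Of the 13 semaphorins of classes 4 to 7, which are membrane-bound, 7 rose, 2 fell, 1 did not pass and 3 were not tested. On the base of the 10 tested, 7 rose and 2 fell, where 20.2% and 12.9% of all genes tested did. The median log2 fold change of the 10 tested was 0.92, against 0.08 over all genes. SEMA4B (chromosome 15, 90160604 to 90229679), a transmembrane semaphorin, reached the highest level of the class. It had 18.3, 16.5 and 18.5 TPM with siSOX10_1 and 33.0, 34.9 and 51.9 TPM with siSOX10_2, against 6.59, 7.88 and 5.83 TPM with siCNTL and 9.09, 6.45 and 6.77 TPM in untreated cells. The 3 transfected groups did not overlap with one another, with siSOX10_2 highest. It rose with both siRNAs (1.28 ± 0.204, limma adjusted p = 0.000560, and 2.38 ± 0.204, adjusted p = 3.87e-06).

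SEMA4C, a ligand of plexin B2, had 7.58, 6.31 and 4.22 TPM with siSOX10_1 and 7.94, 8.90 and 11.0 TPM with siSOX10_2, against 3.55, 2.48 and 3.21 TPM with siCNTL and 3.31, 3.52 and 3.48 TPM in untreated cells. The SOX10 siRNA libraries lay above the controls in every batch. It rose with both siRNAs (0.77 ± 0.230, limma adjusted p = 0.0252, and 1.33 ± 0.230, adjusted p = 0.000877). The siSOX10_1 call was lost without siSOX10_1 replicate 1 (0.107) or 2 (0.0751), without siCNTL replicate 2 (0.0898), with the compared groups alone (0.0734) and against untreated cells (0.0551). SEMA4F, another transmembrane member, had 16.8, 13.3 and 16.4 TPM with siSOX10_1 and 16.8, 18.4 and 19.6 TPM with siSOX10_2, against 8.36, 12.6 and 10.8 TPM with siCNTL and 11.3, 12.9 and 12.5 TPM in untreated cells. The margin was narrow, with 13.3 TPM in the lowest SOX10 siRNA library and 12.9 TPM in the highest control library. It rose with siSOX10_2 (0.75 ± 0.178, adjusted p = 0.00675) and with siSOX10_1 (0.52 ± 0.178, adjusted p = 0.0461), where the call was lost in 9 of 12 fits without 1 library (0.0563 to 0.180). The exceptions were the fits without siSOX10_1 replicate 2, siSOX10_2 replicate 3 or siCNTL replicate 2. That call was also lost with median-of-ratios scaling (0.0797), with no filter (0.0875), without batch 3 (0.0928), with the compared groups alone (0.117) and against untreated cells (log2 fold change 0.31, adjusted p = 0.214).

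SEMA4D, a ligand of plexins B1 and B2, was low throughout, at 1.68 ± 0.245 TPM after siSOX10_1 and 0.986 ± 0.0496 TPM after siSOX10_2, against 0.363 ± 0.278 TPM with siCNTL (SD, n = 3 each). It rose with siSOX10_1 (0.99 ± 0.231, limma adjusted p = 0.00672) and in the mean of both (0.78 ± 0.200, adjusted p = 0.00937, and 0.0504 without siCNTL replicate 2), and did not pass with siSOX10_2 (0.56 ± 0.231, adjusted p = 0.0880). SEMA4D reached 1 TPM in SOX10 siRNA libraries and in none of the 6 control libraries (0.169 to 0.681 TPM), so the filter let it in through the groups where it is high. In the fit with no filter its adjusted p was 0.00781 with siSOX10_1 and 0.0101 in the mean of both. The difference between the siRNAs did not pass (adjusted p = 0.436). SEMA4G did not pass in the mean of both (-0.17 ± 0.229, adjusted p = 0.622). It overlaps MRPL43 on the other strand, a gene at 134 TPM or more in every library.

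Class 6 semaphorins moved in both directions. SEMA6B (chromosome 19, 4542593 to 4581776) had 10.0, 9.29 and 9.06 TPM with siSOX10_1 and 13.8, 11.6 and 10.3 TPM with siSOX10_2, against 1.66, 2.41 and 2.50 TPM with siCNTL and 1.69, 1.31 and 1.32 TPM in untreated cells. SEMA6A (chromosome 5, 116443555 to 116574823) had 5.5, 1.90 and 1.80 TPM with siSOX10_1 and 3.46, 2.03 and 1.07 TPM with siSOX10_2, against 8.57, 9.56 and 9.49 TPM with siCNTL and 9.42, 11.3 and 11.3 TPM in untreated cells. Neither gene's SOX10 siRNA libraries overlapped the controls, and the order of the pair was turned round: SEMA6B stood above SEMA6A in each SOX10 siRNA library and below it in each control library. SEMA6B rose (1.72 ± 0.204 and 2.02 ± 0.204, limma adjusted p = 5.87e-05 and 1.54e-05) and SEMA6A fell (-1.44 ± 0.336 and -1.75 ± 0.336, adjusted p = 0.00651 and 0.00180). SEMA6D, a ligand of plexin A1, averaged 2.50 ± 0.447 TPM after siSOX10_1 and 4.59 ± 2.45 TPM after siSOX10_2, against 1.07 ± 0.887 TPM with siCNTL (SD, n = 3 each). It rose with siSOX10_2 (1.41 ± 0.366, adjusted p = 0.0112, 0.0304 with no filter and 0.0536 without siSOX10_2 replicate 1) and did not pass with siSOX10_1 (0.84 ± 0.366, adjusted p = 0.112, and 0.0435 without siCNTL replicate 2), with an adjusted p of 0.525 for the difference between the siRNAs. Its call in the mean of both (1.12 ± 0.317, adjusted p = 0.0153) was lost without siCNTL replicate 1 (0.0664) or 3 (0.0789). SEMA6C and SEMA4A were under 1 TPM in every library.

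SEMA7A, a lipid-anchored semaphorin that binds plexin C1 and integrin beta 1 (chromosome 15, 74409289 to 74433958), had 4.07, 4.49 and 7.28 TPM with siSOX10_1 and 8.12, 8.14 and 14.6 TPM with siSOX10_2, against 1.32, 2.31 and 3.59 TPM with siCNTL and 1.71, 1.73 and 1.63 TPM in untreated cells. The batch 3 library was highest in all 3 transfected groups. It rose with siSOX10_2 (1.73 ± 0.305, limma adjusted p = 0.000980) and with siSOX10_1 (0.90 ± 0.305, adjusted p = 0.0430). The siSOX10_1 call was lost in 8 of 12 fits without 1 library (0.0501 to 0.176), the exceptions being those without siSOX10_1 replicate 1, siSOX10_2 replicate 1 or 3, or siCNTL replicate 3, and also with median-of-ratios scaling (0.0726), a pseudocount of 5 (0.0678), no filter (0.0959) or the compared groups alone (0.0797). SEMA5A, a ligand of plexin B3, averaged 3.39 ± 0.808 TPM after siSOX10_1 and 1.87 ± 0.210 TPM after siSOX10_2, against 4.83 ± 1.31 TPM with siCNTL (SD, n = 3 each). It fell with siSOX10_2 (-1.0 ± 0.237, adjusted p = 0.00655) and did not pass with siSOX10_1 (-0.40 ± 0.237, adjusted p = 0.237), and the siRNAs did not differ past the threshold (-0.60, adjusted p = 0.262). Its call in the mean of both (-0.70 ± 0.205, adjusted p = 0.0182) was lost without siCNTL replicate 2 (0.0723) or 3 (0.0850) and without batch 3 (0.135). SEMA5B was listed at 0 in all 12 libraries.

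**Figure D3:**
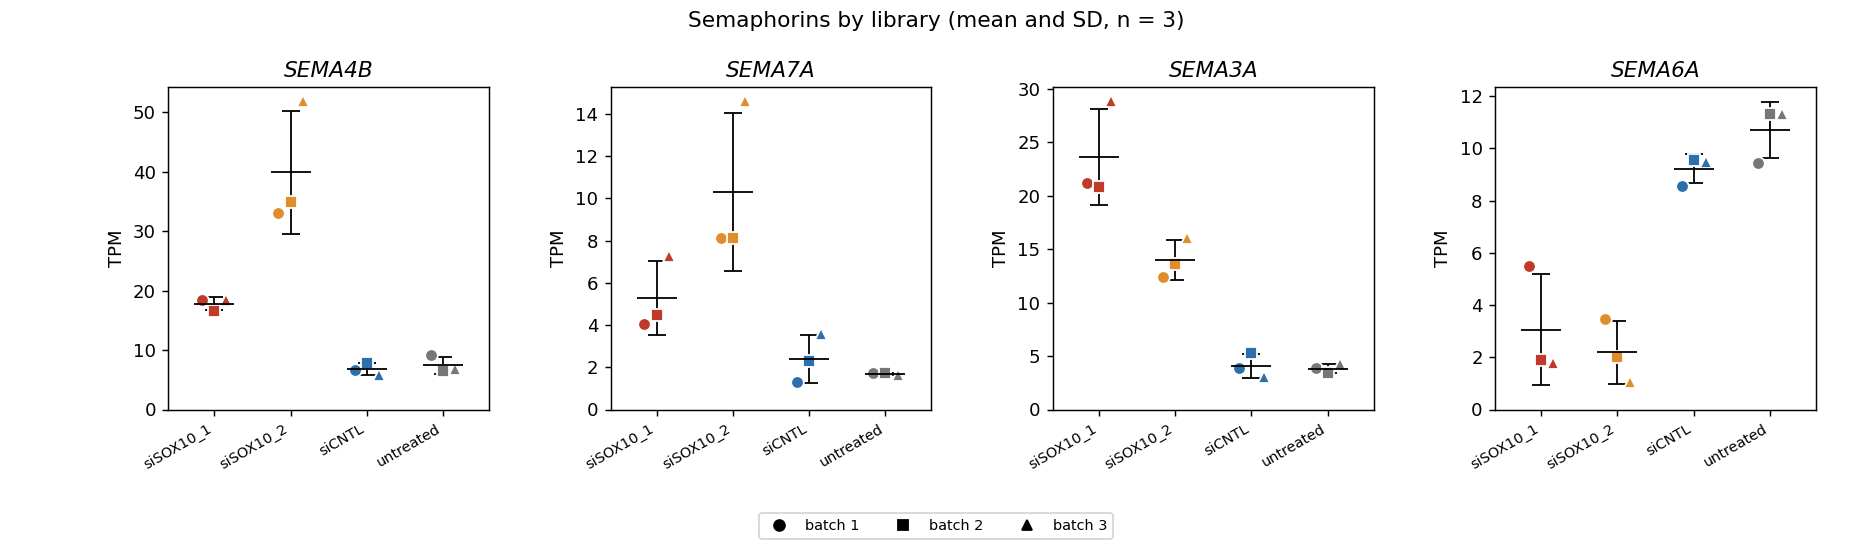
TPM of 4 semaphorins in each library by group (points, shape for the batch), with the group mean and SD of 3 libraries. SEMA4B and SEMA7A are highest with siSOX10_2, SEMA3A with siSOX10_1, and SEMA6A is lower with both SOX10 siRNAs (3.06 and 2.19 TPM) than with siCNTL (9.21 TPM).

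Of the 9 plexins, 2 rose (PLXNB2 and PLXNA1), 5 did not pass and 2 were not tested. Of the 7 plexins tested 2 rose, against 20.2% of all genes tested. The median log2 fold change of the 7 was 0.09, against 0.08 over all genes. PLXNB2, the receptor for SEMA4C and SEMA4D, had 74.5, 65.8 and 70.4 TPM with siSOX10_1 and 55.6, 58.5 and 56.4 TPM with siSOX10_2, against 12.0, 15.7 and 15.3 TPM with siCNTL and 24.6, 14.9 and 21.8 TPM in untreated cells. The SOX10 siRNA libraries did not overlap the control libraries, and the fold differences of the means were 4.91 and 3.97. PLXNB2 rose by 2.23 ± 0.173 with siSOX10_1 (limma adjusted p = 1.91e-06) and by 1.93 ± 0.173 with siSOX10_2 (adjusted p = 5.75e-06). PLXNA1, a partner of the neuropilins, was the most abundant plexin in control cells and had 48.9, 44.2 and 48.2 TPM with siSOX10_1 and 34.3, 29.3 and 36.7 TPM with siSOX10_2, against 29.04, 31.2 and 22.7 TPM with siCNTL and 30.4, 31.1 and 34.5 TPM in untreated cells. The siSOX10_1 libraries stood above all others, and those of siSOX10_2 overlapped the controls. It rose with siSOX10_1 (0.76 ± 0.146, adjusted p = 0.00202), did not pass with siSOX10_2 (0.27 ± 0.146, adjusted p = 0.193), and the difference between the siRNAs did not pass (-0.49 ± 0.146, adjusted p = 0.124). In the mean of both siRNAs it rose against siCNTL (0.51 ± 0.126, adjusted p = 0.00700) but did not pass against untreated cells (0.30, adjusted p = 0.0826).

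PLXND1, another class 3 semaphorin receptor, was at 15.0 ± 0.530 TPM after siSOX10_1 and 10.7 ± 1.81 TPM after siSOX10_2, against 12.7 ± 6.45 TPM with siCNTL (SD, n = 3 each), where the siCNTL libraries spread from 7.56 to 20.0 TPM. It did not pass in the mean of both siRNAs (log2 fold change 0.09 ± 0.244, limma adjusted p = 0.830). With siSOX10_1 it passed without batch 3 (0.70, adjusted p = 0.0262) and not with all libraries (0.32 ± 0.282, adjusted p = 0.448). PLXNB3 averaged 2.33 and 2.98 TPM with the SOX10 siRNAs against 2.55 TPM with siCNTL. PLXNB1, PLXNC1 and PLXNA3 were between 0.249 and 2.77 TPM in SOX10 siRNA libraries and between 0.380 and 4.61 TPM in control libraries, and none passed. PLXNA3 overlaps LAGE3 (mean of 93.4 TPM over the 12 libraries) and PLXNC1 overlaps CEP83 (5.32 TPM) on the other strand. Each is more abundant than the plexin it overlaps, so the values of PLXNA3 and PLXNC1 are uncertain. PLXNA2 did not exceed 0.366 TPM and PLXNA4 was listed at 0.

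Of the 4 genes of the Robo family, which holds the Slit receptors, ROBO1 and ROBO3 rose, ROBO2 fell and ROBO4 was not tested. Of all genes tested 20.2% rose and 12.9% fell. ROBO1 (chromosome 3, 78597239 to 79767998, minus strand) had 37.1, 35.0 and 31.4 TPM with siSOX10_1 and 27.6, 26.9 and 20.0 TPM with siSOX10_2, against 6.66, 10.7 and 7.98 TPM with siCNTL and 14.5, 10.4 and 9.77 TPM in untreated cells. ROBO2 (chromosome 3, 75906695 to 77649964, plus strand), its neighbour, had 2.59, 2.05 and 0.550 TPM with siSOX10_1 and 4.42, 3.51 and 1.13 TPM with siSOX10_2, against 5.63, 5.72 and 9.65 TPM with siCNTL and 12.3, 7.81 and 5.79 TPM in untreated cells. Neither gene's SOX10 siRNA libraries overlapped the controls, and ROBO2 was lowest in batch 3 of both SOX10 siRNAs, the libraries lowest in SOX10. In untreated cells ROBO2 was also lowest in batch 3, where SOX10 was highest of that group (32.4 TPM), and with siCNTL ROBO2 was highest in batch 3. A relation of ROBO2 to the SOX10 level was not tested. ROBO1 rose with both siRNAs (1.93 ± 0.206 and 1.46 ± 0.206, limma adjusted p = 2.77e-05 and 0.000203).

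ROBO2 fell with siSOX10_1 (-1.60 ± 0.409, limma adjusted p = 0.0111) and in the mean of both (-1.33 ± 0.354, adjusted p = 0.0111, and 0.0552 without siCNTL replicate 3). With siSOX10_2 it did not pass (-1.06 ± 0.409, adjusted p = 0.0696). It did pass there with the batch as a block (0.0334), with median-of-ratios scaling (0.0336), against untreated cells (0.0275) and without siSOX10_1 replicate 3 (0.0421) or siSOX10_2 replicate 1 (0.0473). Within the same batch, the log2 difference from siCNTL was negative in each of the 6 pairs, from -0.88 to -2.78 with siSOX10_1 and from -0.29 to -2.32 with siSOX10_2. ROBO3, a divergent Robo of crossing axons, had 6.29, 4.67 and 3.54 TPM with siSOX10_1 and 8.80, 13.8 and 9.61 TPM with siSOX10_2, against 5.47, 3.58 and 1.88 TPM with siCNTL and 1.88, 3.06 and 4.59 TPM in untreated cells. The siSOX10_2 libraries lay above all others. It rose with siSOX10_2 (1.39 ± 0.334, adjusted p = 0.00718) and did not pass with siSOX10_1 (0.38 ± 0.334, adjusted p = 0.447). The difference between the siRNAs did not pass (1.01 ± 0.334, adjusted p = 0.163). Its call in the mean of both (0.88 ± 0.290, adjusted p = 0.0318) was lost without siSOX10_1 replicate 1 (0.0646), siSOX10_2 replicate 2 (0.0645), siCNTL replicate 2 (0.0742) or siCNTL replicate 3 (0.162), without batch 3 (0.0513) and with no filter (0.0766). Of the summed ROBO1, ROBO2 and ROBO3 TPM, ROBO2 made up 1.55% to 5.64% with siSOX10_1 and 3.68% to 10.8% with siSOX10_2, against 28.7% to 49.4% with siCNTL and 28.7% to 43.0% in untreated cells.

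**Figure D4:**
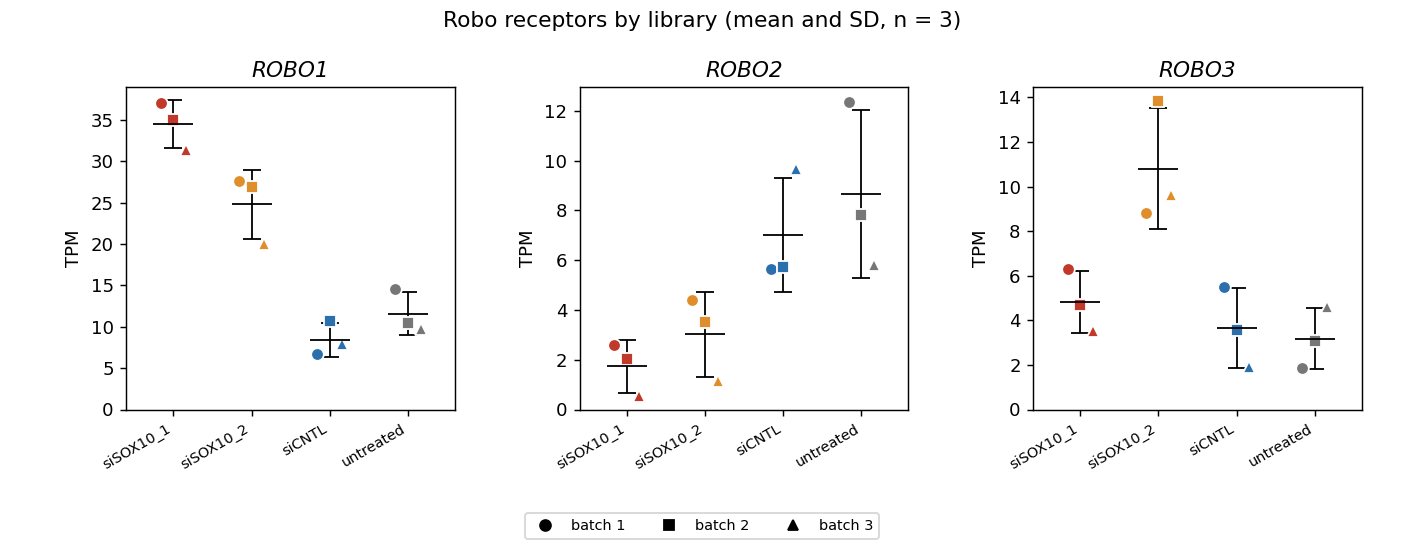
TPM of ROBO1, ROBO2 and ROBO3 in each library by group (points, shape for the batch), with the group mean and SD of 3 libraries. ROBO1 averages 34.5 and 24.8 TPM with the SOX10 siRNAs against 8.43 TPM with siCNTL, and ROBO2 averages 1.73 and 3.02 TPM against 7.00 TPM.

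The sequence before the RefSeq start sites of ROBO1, PLXNB2 and ROBO2 is shown (GRCh38.p14, 250 bases, 5′ to 3′ on the gene's strand). Capitals mark TCATGTG, the M-box bound by the melanocyte factor MITF, which reads CACATGA where it stands on the other strand, as in ROBO1. ROBO1 and PLXNB2 were the only 2 of the 39 members with a window that hold it. The windows shown therefore do not stand for the genes that rose. The windows are ROBO1 at chr3:79767999-79768248 (minus strand), directly upstream of the gene as the table gives it, PLXNB2 at chr22:50301670-50301919 (minus strand) and ROBO2 at chr3:76310630-76310879 (plus strand). The PLXNB2 and ROBO2 windows lie inside the longer gene as the table gives it and overlap no GENCODE v29 exon.
ROBO1: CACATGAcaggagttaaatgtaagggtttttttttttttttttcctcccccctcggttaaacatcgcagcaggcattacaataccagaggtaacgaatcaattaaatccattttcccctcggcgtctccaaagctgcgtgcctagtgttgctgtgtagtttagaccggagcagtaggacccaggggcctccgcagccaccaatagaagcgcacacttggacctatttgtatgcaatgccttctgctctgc
PLXNB2: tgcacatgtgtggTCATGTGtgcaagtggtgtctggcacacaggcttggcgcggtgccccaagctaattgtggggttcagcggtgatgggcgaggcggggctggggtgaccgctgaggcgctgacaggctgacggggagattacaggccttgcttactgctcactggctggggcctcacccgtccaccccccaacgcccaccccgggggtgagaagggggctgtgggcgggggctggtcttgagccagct
ROBO2: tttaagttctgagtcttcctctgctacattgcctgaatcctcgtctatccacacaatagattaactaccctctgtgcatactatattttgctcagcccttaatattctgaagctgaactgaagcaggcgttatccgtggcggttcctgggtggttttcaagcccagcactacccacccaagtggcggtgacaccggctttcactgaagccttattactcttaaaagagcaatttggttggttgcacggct
Windows were found for 39 of the 47 members, 12 of them of genes that rose in the mean of both siRNAs and 2 of genes that fell (SEMA5A and ROBO2). NRP1, SEMA3A and SEMA6B, which rose, and SEMA6A, which fell, had no window, so the motif counts do not cover them. TCATGTG occurred in 2 of the 12, ROBO1 and PLXNB2, and in 2.58% of all 27305 promoters. The SOX motifs ACAAAG and ACAATG occurred in 0 of the 12 and in 0 of the 2, against 13.7% and 9.45% of all promoters. CACGTG, an E-box, occurred in 2 of the 12 (SEMA4D and SEMA6D) and in 6.49% of all promoters. TGANTCA, the AP-1 motif, occurred in 0 of the 12 and in 6.60% of all promoters. All motifs were searched on both strands, and the windows shown hold no other of these motifs. A match is a run of letters and not a binding site, and a motif that is missing here may stand outside the window.

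Netrin 4 was the 1 netrin at a measurable level, and no UNC5 receptor, DCC or Slit reached 1 TPM in any library. NTN4, a laminin-related protein of basement membranes (chromosome 12, 95657807 to 95791189), had 12.5, 10.9 and 13.5 TPM with siSOX10_1 and 9.86, 6.94 and 8.62 TPM with siSOX10_2, against 1.85, 2.11 and 2.88 TPM with siCNTL and 1.63, 2.60 and 2.45 TPM in untreated cells. The SOX10 siRNA libraries did not overlap the control libraries. NTN4 rose with both siRNAs (2.03 ± 0.221 and 1.53 ± 0.221, limma adjusted p = 3.27e-05 and 0.000242). NTN1, NTN3 and NTN5 did not exceed 0.537 TPM. UNC5A and UNC5D were listed at 0, UNC5B did not exceed 0.135 TPM and UNC5C did not exceed 0.322 TPM. DCC, the main netrin 1 receptor, was listed at 0 in all groups.

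Among the Slits, SLIT2 was between 0.045 and 0.732 TPM in the SOX10 siRNA libraries and between 0 and 0.192 TPM in the controls, SLIT1 did not exceed 0.037 TPM and SLIT3 was listed at 0. The Slit receptor ROBO1 was therefore measured at 20.0 to 37.1 TPM in SOX10 siRNA libraries in which no Slit reached 1 TPM. ROBO4, an endothelial Robo, did not exceed 0.211 TPM. UNC5CL, which the rule takes in by its symbol although it is not a netrin receptor, stayed under 1 TPM and overlaps OARD1 on the same strand.

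Set beside each other, 10 of the 27 ligands rose and 2 fell, with 13 not tested, and 5 of the 19 receptors and co-receptors rose and 1 fell, with 7 not tested. Over all genes tested 20.2% rose and 12.9% fell. On that base, 10 of the 14 ligands tested and 5 of the 12 receptors and co-receptors tested rose. The median log2 fold changes of those tested were 1.08 for ligands and 0.41 for receptors, against 0.08 over all genes. Because the families were chosen with earlier results of these data known, these counts and medians are descriptive. SEMA3A and SEMA3C stood at 12.4 to 38.2 TPM beside NRP1 at 130 to 175 TPM in the SOX10 siRNA libraries, and at 3.07 to 13.1 TPM beside NRP1 at 3.92 to 5.72 TPM in the control libraries. SEMA4C and its receptor PLXNB2 rose together. SEMA7A rose with integrin beta 1 (ITGB1, 477 ± 34.2 TPM after siSOX10_1 and 567 ± 68.7 TPM after siSOX10_2, against 185 ± 27.4 TPM with siCNTL, SD, n = 3 each), while its plexin, PLXNC1, did not pass at 0.945 and 0.573 TPM with the SOX10 siRNAs against 0.966 TPM with siCNTL. SEMA6A fell in cells whose known receptors for it, PLXNA2 and PLXNA4, were near or at 0.

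**Figure D5:**
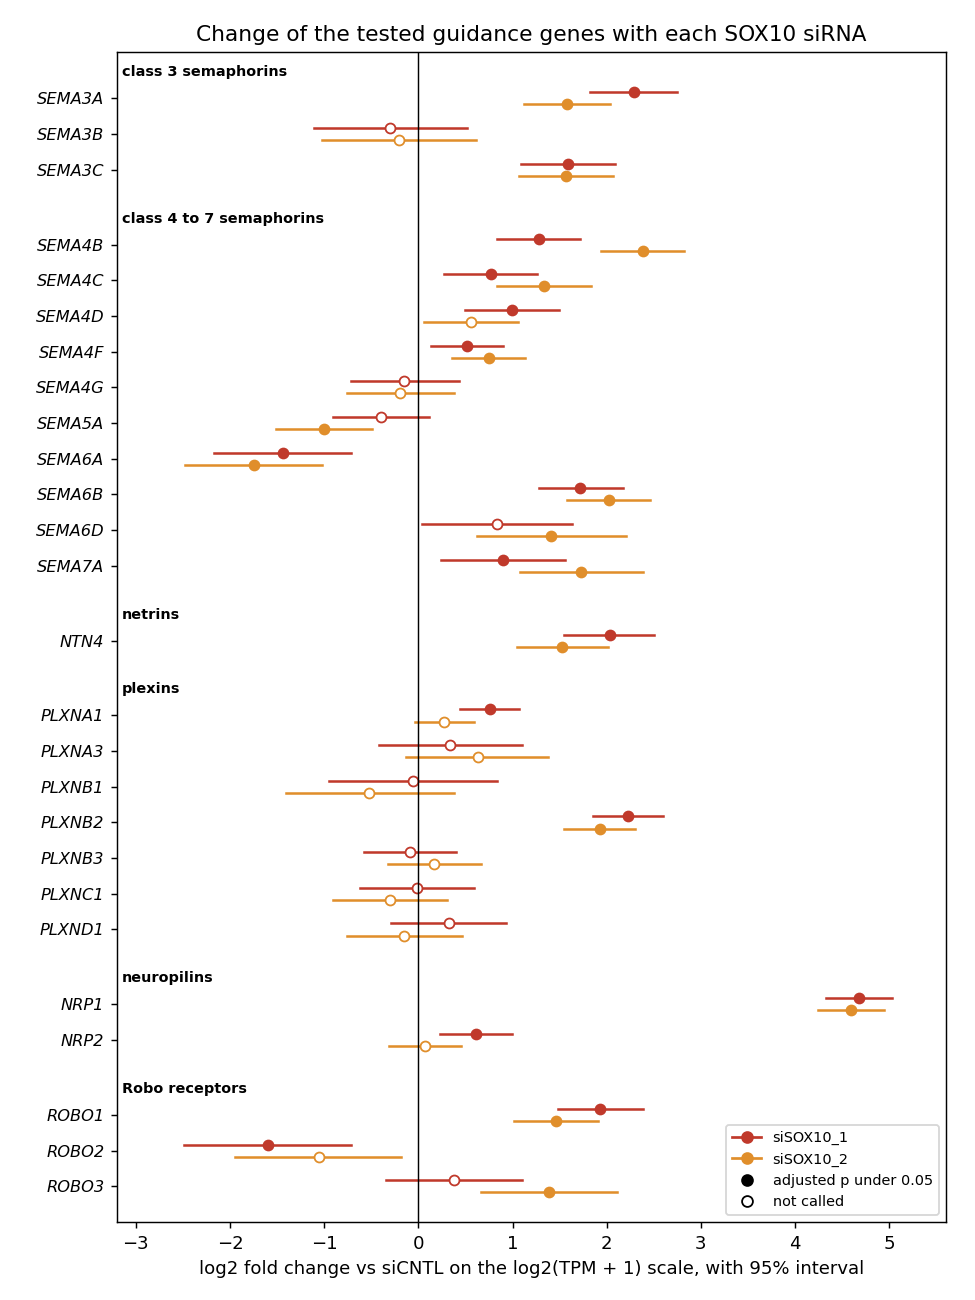
Log2 fold change against siCNTL, on the log2(TPM + 1) scale, of the 26 guidance genes tested, with siSOX10_1 and siSOX10_2 (points with 95% intervals, filled where the adjusted p is under 0.05). NRP1 stands apart at 4.68 and 4.59, SEMA6A and ROBO2 lie furthest to the left, and both siRNAs share the siCNTL libraries.

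Other genes of the pathways were taken from lists drawn up with earlier results of these data known, so their counts are not an independent test. The lists held 73 genes, of which 58 were tested. In the mean of both siRNAs 27 rose and 8 fell, against 20.2% and 12.9% of all genes. With median-of-ratios scaling 22 rose and 11 fell, and no share of all genes is given for that scaling. Of 14 partners of semaphorins and neuropilins 10 were tested, 7 rose and 1 fell, with a median log2 fold change of 1.46 against 0.08 over all genes. VEGFC, a growth factor that binds neuropilin 2, averaged 10.8 ± 4.79 TPM after siSOX10_1 and 15.3 ± 5.69 TPM after siSOX10_2, against 2.04 ± 0.610 TPM with siCNTL (SD, n = 3 each, log2 fold change 2.15 ± 0.270, limma adjusted p = 6.53e-05). The VEGF receptor FLT1 rose by 1.86 ± 0.190 (adjusted p = 1.15e-05) and the adhesion molecule NRCAM by 1.71 ± 0.209 (adjusted p = 5.24e-05). NRCAM stayed under 1 TPM in all 6 control libraries (0.262 to 0.877 TPM) and so passed the filter through the SOX10 siRNA libraries; its adjusted p was 0.000169 in the fit with no filter. CHL1, an adhesion molecule that binds neuropilin 1, fell by 1.75 on the log2 scale (adjusted p = 0.00653).

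Of 27 genes of plexin signalling 24 were tested, 7 rose and 4 fell (median 0.16). Of all genes tested 20.2% rose and 12.9% fell, with a median of 0.08. MICAL2, an enzyme that oxidises actin, averaged 10.4 ± 0.461 TPM after siSOX10_1 and 15.0 ± 3.34 TPM after siSOX10_2, against 0.768 ± 0.293 TPM with siCNTL (SD, n = 3 each, log2 fold change 2.94 ± 0.190, limma adjusted p = 2.11e-07, and 1.66e-06 with no filter, since 1 of 6 control libraries reached 1 TPM). RND3, a small GTPase that opposes RHOA signalling, rose by 2.52 ± 0.296 (adjusted p = 6.59e-05), RRAS, a substrate of the plexin GTPase-activating domain, by 1.42 ± 0.0811 (adjusted p = 7.58e-08), and the cofilin kinase LIMK1 by 1.12 ± 0.195 (adjusted p = 0.000734). The 4 that fell, named here after their values were seen, were MICAL1, LIMK2, FARP1 and CDK5. LIMK2, also a cofilin kinase, averaged 6.85 ± 1.89 TPM after siSOX10_1 and 6.36 ± 0.496 TPM after siSOX10_2, against 12.2 ± 0.600 TPM with siCNTL (SD, n = 3 each, log2 fold change -0.81 ± 0.183, adjusted p = 0.00411). MICAL1, a relative of MICAL2, fell by 0.93 on the log2 scale (adjusted p = 0.0191), a call lost without siCNTL replicate 1 (0.0814) or 2 (0.107), with no filter (0.0546) and against untreated cells (0.120). The CDK5 call (-0.35, adjusted p = 0.0458) was lost in 9 of 12 fits without 1 library (0.0508 to 0.212), the exceptions being those without siSOX10_2 replicate 2, siCNTL replicate 3 or untreated replicate 3. Of 20 genes of netrin and Slit signalling 18 were tested, 7 rose and 3 fell (median 0.36), beside the same shares and median of all genes. The adaptors ABLIM1 and NCK2 fell by 1.49 and 1.27 on the log2 scale (adjusted p = 0.000419 and 0.000248), and ABLIM3 and VASP rose by 1.08 ± 0.234 and 0.99 ± 0.198 (adjusted p = 0.00329 and 0.00192). ABLIM3 too was under 1 TPM in all 6 control libraries (0.175 to 0.971 TPM), and its adjusted p was 0.00713 with no filter.

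The list of proteases was also drawn up with earlier results of these data known. All 4 listed proteases that cut semaphorins or their receptors rose in the mean of both siRNAs, where 20.2% of all genes tested did. These were MMP14 (1.08 ± 0.218, limma adjusted p = 0.00202), ADAM17 (0.83 ± 0.170, adjusted p = 0.00221), FURIN (0.61 ± 0.176, adjusted p = 0.0179) and ADAM10 (0.52 ± 0.144, adjusted p = 0.0144). The FURIN call was lost without siCNTL replicate 1 (0.117) or 2 (0.0723) and the ADAM10 call without siCNTL replicate 1 (0.102). Both were lost with median-of-ratios scaling (0.0621 and 0.0766). ADAM10 did not pass with siSOX10_2 alone (0.38 ± 0.167, limma adjusted p = 0.106). Of 8 other netrin and RGM genes 2 were tested and both rose in the mean. RGMB rose by 0.80 ± 0.192 (limma adjusted p = 0.00602) and did not pass with siSOX10_1 alone (0.132). Its receptor NEO1, neogenin, rose by 0.74 ± 0.213 (adjusted p = 0.0173) and did not pass with siSOX10_2 alone (0.0689). The NEO1 call was lost without siCNTL replicate 2 (0.0882), without batch 3 (0.0536) and against untreated cells (0.0763).

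Compared directly, siSOX10_2 and siSOX10_1 differed in 1 member, SEMA4B, where 1.07% of all genes were higher with siSOX10_2 and 0.489% lower (1.56% in either direction). SEMA4B averaged 39.9 ± 10.4 TPM with siSOX10_2 and 17.8 ± 1.1 TPM with siSOX10_1 (SD, n = 3 each, log2 fold change 1.1 ± 0.204, limma adjusted p = 0.0199). The call was lost without siSOX10_1 replicate 1 (0.0804) or 2 (0.0737), without siSOX10_2 replicate 2 (0.0556) or 3 (0.0799), and with no filter on low genes (0.0507) or the compared groups alone (0.0924). For NRP1 the difference was -0.09 ± 0.163 (95% interval -0.44 to 0.26, adjusted p = 0.860) and for SEMA3C -0.02 ± 0.230 (95% interval -0.52 to 0.48, adjusted p = 0.985). At an unadjusted p under 0.05, 10 of the 26 tested members differed between the siRNAs, where 14.4% of all genes did.

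The control siRNA was compared with no transfection. With limma, 0 of the 26 tested members and 0% of all genes passed in siCNTL against untreated cells. At an unadjusted p under 0.05 there was 1 member, PLXNB2 (14.3 ± 2.04 TPM with siCNTL and 20.4 ± 4.96 TPM in untreated cells, SD, n = 3 each), and 3.69% of all genes. Without the trend and robust options of limma the count was also 0.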

How the data were processed

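RNA was measured in 12 A2058 libraries; per the labels' protocols, libraries came from a low-input full-length cDNA kit and tagmentation, and bcl2fastq and DRAGEN are named in the submitters' processing notes. The authors deposited 1 table of TPM with gene coordinates; the sources used here do not give versions, build or strand use. GENCODE v29 (GRCh38) holds 94.8% of its identifiers, and 99.9% of these overlapped the deposited position, so coordinates are given as GRCh38. TPM keep no depth, so no counting interval can be given, and they sum to the same total, so a rise in abundant genes lowers others. Median-of-ratios scaling moved the median log2 fold change over all genes from 0.12 to 0.003 for siSOX10_2 and from 0.028 to -0.01 for siSOX10_1.

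The 15738 genes that reached 1 TPM in 3 or more libraries were tested as log2(TPM + 1) with limma 3.58.1 in R 4.3.3 (group means of all 12 libraries, 8 residual degrees of freedom, trend and robust options). Benjamini-Hochberg adjustment ran over all of them, with a threshold of 0.05. Fold changes are tested over control, ± standard error. The fit was run on simulated data with independent noise and no batch differences. That run does not cover the batch structure of these libraries or the filter on low genes. Groups and batches are from the labels. Replicate numbers are the labels' batches, so they pair the libraries; the median correlation of deviations was 0.179 over 18 same-batch pairs and -0.0974 over 36 others. The labels do not say whether replicates were separate cultures, and p-values then cover only the variation among these libraries, which may be technical. The members and lists were chosen with earlier results of these data known. Members called in any comparison are named with values, in every library where a group mean reached 5 TPM, and SEMA3B in every library was chosen after its values were seen, as was ITGB1. Of the other pathway lists, the 4 called genes with the largest change are named. Promoter sequences are RefSeq's (GRCh38.p14), the part before the start site.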

Additional observations from a re-analysis of the deposited data

Results flagged for a closer look

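SEMA4B differed between the SOX10 siRNAs with all libraries, a call that did not hold under every alternative. The direct comparison of siSOX10_2 with siSOX10_1 gave a log2 fold change of 1.1 ± 0.204 (limma adjusted p = 0.0199), with siSOX10_2 higher in each of the 3 batches. Of 21 alternatives 6 lost the call, with an adjusted p of up to 0.0924, among them 4 of the 12 fits without 1 library. SOX10 itself was at 8.34 ± 3.83 TPM with siSOX10_2 and 9.64 ± 5.47 TPM with siSOX10_1 (SD, n = 3 each). The cause was not tested.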

How the results depend on the processing

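Across the alternatives, none of the 50 called results of single guidance genes reversed, 38 kept their call under every alternative run and the other 12 lost it under at least 1. In the mean of both siRNAs the count of guidance genes called was 18, and 14 to 18 without 1 library, 18 with the batch as a replicate block, 17 with no filter, 15 with a filter at 5 TPM and 15 without batch 3. It was 12 to 16 with siSOX10_1 and 13 to 16 with siSOX10_2 under all alternatives (16 and 15 with all libraries), and 16 in each with the replicate block, which changed no call but that of ROBO2 with siSOX10_2. For the pathway lists, whose alternatives were chosen after seeing the data, 35 calls became 27 to 36 without 1 library and 39 with the block. The single call between the siRNAs, SEMA4B, was 0 with no filter and 0 with the fit limited to the compared groups (adjusted p = 0.0924), and 0 to 1 without 1 library. The count for siCNTL against untreated cells was 0 under every alternative run. The cause was not tested. TPM hold no read depth, so low members such as SLIT2 or SEMA4D cannot be given counting limits, and with 3 libraries a group a missed threshold does not show that values were alike.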

Other observations

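Log2 differences from the siCNTL library of the same batch varied by batch for several members. For ROBO2 they were -0.88, -1.14 and -2.78 in batches 1, 2 and 3 with siSOX10_1 and -0.29, -0.58 and -2.32 with siSOX10_2. These differences were furthest from 0 in batch 3, where SOX10 was lowest within each SOX10 siRNA and ROBO2 was highest with siCNTL (9.65 TPM). For SEMA6A they were -0.56, -1.87 and -1.91 with siSOX10_1 (SOX10 at 12.8, 12.8 and 3.32 TPM). With siSOX10_2 they were -1.1, -1.80 and -2.34 for SEMA6A (SOX10 at 11.8, 8.95 and 4.24 TPM). For SEMA3B they were 0.19, -0.08 and -1.0 with siSOX10_1 and 0.08, -0.24 and -0.46 with siSOX10_2. For NRP1 they were 4.54, 4.34 and 5.16 with siSOX10_1 and 4.53, 4.29 and 4.94 with siSOX10_2, also furthest from 0 in batch 3. For PLXNB2 they were 2.54, 2.00 and 2.13 with siSOX10_1 and 2.13, 1.84 and 1.82 with siSOX10_2, furthest from 0 in batch 1. With 1 library per group in a batch, these are values with no test, and a relation to the SOX10 level was not tested.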
